A study of Mus musculus with 23 samples.

Results

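The genes described here are 10 extracellular antagonists and nuclear effectors of Wnt signalling: Sfrp1, Sfrp2, Sfrp5, Dkk1, Frzb, Lef1, Tcf7, Tcf7l1, Tcf7l2 and Axin2. They were chosen by symbol as a gene family, with earlier results of these data known, and all 10 were found among the 36814 genes of the mRNA count tables. The cells were F9, a line of mouse embryonal carcinoma known to form extraembryonic endoderm under retinoic acid. The series has 23 samples, of which the 14 mRNA libraries were used here. Treated cells were given 1e-07 M all-trans retinoic acid (RA) for 6, 12, 24 or 48 h, with 2 libraries per time. Untreated cells at 0 h gave 4 libraries, and cells given the solvent dimethyl sulfoxide (DMSO) at 0.001% gave 1 library at 24 h and 1 at 48 h. All groups are of the same line, and the labels name no transgene or deletion in any of them. Nothing says that replicates came from separate cultures, so each p-value speaks of variation among libraries alone, some of it possibly technical.

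Wnt proteins are secreted ligands that bind Frizzled receptors and their LRP co-receptors, and this keeps β-catenin from being degraded. β-catenin then enters the nucleus and binds the TCF/LEF proteins (Tcf7, Lef1, Tcf7l1 and Tcf7l2), which sit on DNA and repress or activate target genes. The secreted Frizzled-related proteins (Sfrp1, Sfrp2, Sfrp5 and Frzb) bind Wnt ligands outside the cell, Dkk1 blocks the LRP co-receptors, and Axin2 is a scaffold of the β-catenin destruction complex whose gene is itself a common Wnt target. Sfrp5 and Dkk1 are also known for their expression in early extraembryonic and anterior endoderm of the mouse embryo.

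Across the 4 RA times, Sfrp5 and Dkk1 rose from a few counts to at least 381 per library, Tcf7l2 rose at 48 h, and Lef1 was at 0 and 7 counts at 6 h. In the model used for most values here, the lower Lef1 level passed the test at 24 h only, and replicate 2 of 48 h held 42 counts. Axin2, Sfrp2 and, in that model, Sfrp1, Tcf7, Tcf7l1 and Frzb passed the test at no time.

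Gene counts per library came to between 7.079 and 10.95 M (mega), and levels are given as CPM (counts divided by that total and scaled to 1 M), on a scale that does not correct for transcript length, so levels are compared within a gene only. The libraries fell into a pair of sets by the share of reads assigned to no feature, 57.3 to 59.43% in set 1 and 52.51 to 53.77% in set 2, with 7 libraries in each. Set 1 holds replicate 1 of 0 h and of each RA time and both DMSO libraries. What sets them apart was not tested; per the labels, some libraries were read on one sequencer type and some on another. Of the 10 genes, 6 differed between the sets in a fit with a set term, against 42.1% of all genes. As marker genes of the line, 8 pluripotency genes summed to 4626 to 5535 CPM at 0 h and 1442 to 2324 CPM at 48 h of RA, and 8 parietal endoderm genes to 863.5 to 1319 CPM at 0 h and 6715 to 9973 CPM at 48 h. Over the same interval 7 primitive endoderm genes went from 55.35 to 108.1 CPM up to 1341 to 1518 CPM, and 7 visceral endoderm genes from 1.708 to 7.473 CPM up to 129.8 to 134.3 CPM. Of this visceral endoderm sum at 48 h, Cubn alone held 75.2 to 102 CPM, and 2 of the 7 genes had a mean under 1 CPM. The part of these shifts in the changes of the 10 genes was not tested. In such bulk libraries, fewer cells of a type and less RNA per cell cannot be told apart.

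The promoters of Sfrp5, Dkk1 and Lef1 are shown because these genes had the largest fitted changes among those called after RA. They run from 250 bases before to 50 after the annotated start, come from RefSeq on build GRCm38.p6, and 9 of the 10 genes had an entry. Capitals mark matches to the motifs searched on both strands. The core that TCF/LEF proteins bind was searched as CTTTGAT or, in its other form, as CTTTGAA. The half-site of retinoid receptors was searched as AGGTCA, alone or as a direct repeat spaced by 2 or 5 bases, or in a weaker form as AGTTCA. The GATA factor motif was searched as AGATAA or, in its other form, as TGATAA. The TATA box was searched as TATAAA. No pair of these matches overlapped in the 3 windows shown. Sfrp5 lies on the minus strand at chr19:42202203-42202502 in this window, Dkk1 on the minus strand at chr19:30549447-30549746, and the first of the annotated Lef1 starts on the plus strand at chr3:131110047-131110346.
Sfrp5: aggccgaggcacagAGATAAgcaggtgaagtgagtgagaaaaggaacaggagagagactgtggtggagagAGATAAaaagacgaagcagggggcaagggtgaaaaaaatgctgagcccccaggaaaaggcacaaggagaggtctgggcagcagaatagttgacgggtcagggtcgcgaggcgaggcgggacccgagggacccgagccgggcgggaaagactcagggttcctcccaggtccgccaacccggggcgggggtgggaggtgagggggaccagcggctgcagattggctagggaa
Dkk1: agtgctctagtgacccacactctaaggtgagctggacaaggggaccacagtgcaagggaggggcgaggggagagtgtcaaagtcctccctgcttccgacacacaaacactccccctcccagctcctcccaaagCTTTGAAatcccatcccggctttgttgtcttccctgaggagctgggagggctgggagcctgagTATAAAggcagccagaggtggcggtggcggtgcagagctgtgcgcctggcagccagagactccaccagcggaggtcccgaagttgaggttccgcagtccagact
Lef1: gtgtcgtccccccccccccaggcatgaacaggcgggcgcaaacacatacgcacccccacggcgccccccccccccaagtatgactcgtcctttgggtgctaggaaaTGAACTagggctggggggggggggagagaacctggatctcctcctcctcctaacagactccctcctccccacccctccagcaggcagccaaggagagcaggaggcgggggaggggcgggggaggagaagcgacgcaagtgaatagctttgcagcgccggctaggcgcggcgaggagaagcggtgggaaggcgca
The Sfrp5 window held AGATAA at -236 and at -180 from the start, and 11.2% of 32851 mouse promoter windows of the same length hold that motif. The Dkk1 window held CTTTGAA at -117, a match found in 5.14% of all windows, and TATAAA at -54, found in 13.6%. The Lef1 window held AGTTCA on the opposite strand at -144, a match found in 14% of windows. Neither spaced repeat of AGGTCA was found in any window of the 9 genes, and the windows of Axin2, Sfrp2 and Tcf7l1 held no match to any motif searched. A match is a run of letters and not a measured binding site. Receptor binding was not analysed here for these genes, because the deposited regions are on build mm9 and no gene positions of that build were used.

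Among the secreted antagonists, Sfrp5 had the earliest called rise. Its level was 1.04 to 1.55 CPM in the 4 libraries at 0 h, 1.43 and 1.70 CPM at 6 h, and 3.14 and 5.96 CPM at 12 h. At 24 h it stood at 136 and 99.3 CPM, and at 48 h at 127 and 161 CPM. The DMSO libraries held 2.36 CPM at 24 h and 1.51 CPM at 48 h. Both libraries of 12, 24 and 48 h lay above every 0 h and DMSO library, whereas the 6 h libraries overlapped both. The rise over 0 h had a log2 value of 1.72 ± 0.29 (SE) at 12 h (edgeR quasi-likelihood test, Benjamini-Hochberg adjusted p = 0.0101), 6.32 ± 0.28 at 24 h (adjusted p = 1.92e-06) and 6.56 ± 0.28 at 48 h (adjusted p = 1.91e-06). The 12 h call rests on replicate 2 of that time, since without it the adjusted p was 0.169.

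The largest step between successive times in the mean level of Sfrp5 was that from 12 to 24 h, from 4.55 to 118 CPM, and the mean at 48 h was 144 CPM. The step measured 4.60 ± 0.34 in log2 (adjusted p = 0.000863, edgeR), and Sfrp5 was 1 of 2 genes called in it, 0.0124% of all genes tested. DESeq2 called 345 genes in this step, Sfrp5 among them. With the set term 6.26% of all genes were called in this step, and Dkk1 was called beside Sfrp5, at 3.65 ± 0.8 (adjusted p = 0.0258, edgeR). Replicate number as a block divides its libraries the way the sets do. That fit also called both genes, with Dkk1 at 3.66 (adjusted p = 0.00344, edgeR), and it called 11.8% of all genes. From 24 to 48 h the change was 0.24 ± 0.28 (adjusted p = 0.789, edgeR), and its 95% interval ran from -0.39 to 0.87. Within set 1 the ratio of 48 h to 24 h counts was 0.934 (95% counting interval 0.862 to 1.01), and within set 2 it was 1.62 (1.5 to 1.75). The 2 libraries therefore moved in unlike ways over that day, while both remained far above 12 h. Counting intervals here and below cover counting error only.

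Dkk1, which blocks the LRP co-receptors, rose later and varied more between libraries. Its counts at 0 h were 2, 1, 2 and 12, followed by 6 and 1 at 6 h and by 11 and 1 at 12 h. They reached 159 and 27 at 24 h, or 17.3 and 2.52 CPM, and 618 and 381 at 48 h, or 68.5 and 34.8 CPM. DMSO libraries held 4 counts at 24 h and 1 at 48 h. Both 24 h libraries and both 48 h libraries lay above all others, and in each pair the set 1 library was the higher. The log2 change from 0 h was 4.36 ± 1.01 at 24 h (adjusted p = 0.0191, edgeR) and 6.68 ± 1.03 at 48 h (adjusted p = 0.00111, edgeR). Within set 2 the 24 h level was 5.16 times that at 0 h (2.65 to 10.4), and within set 1, which had 2 counts at 0 h, the ratio of counts was 61.4 (16.7 to 511). Dkk1 also differed between the sets over all times, at -1.69 in log2 for set 2 minus set 1 (adjusted p = 0.0169, edgeR). Leaving out 0 h replicate 2, 0 h replicate 3 or 24 h replicate 1 ended the 24 h call, and over all alternatives tried its adjusted p reached 0.274. The 48 h call held in all 14 alternatives tried.

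Between 24 and 48 h Dkk1 was higher at the later time in both sets. Its counts per library size went up 3.95 times in set 1 (3.31 to 4.73) and 13.8 times in set 2 (9.35 to 21.2). In the model without a set term this step was 2.31 ± 1.07 in log2 (adjusted p = 0.377, edgeR). With the set term it was 2.69 ± 0.59 (adjusted p = 0.0132, edgeR; 11% of all genes called), and with replicate number as a block 2.74 ± 0.38 (adjusted p = 0.000599, edgeR; 16.8% of all genes called). Whether the courses of Sfrp5 and Dkk1 differ was not tested.

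Sfrp1, a Wnt-binding antagonist with 835 counts or more in every library, showed the opposite direction at a much smaller size. At 0 h it was 173, 188, 98.7 and 161 CPM. At 6 h it was 99.6 and 105 CPM, at 12 h 114 and 147 CPM, at 24 h 134 and 154 CPM, and at 48 h 132 and 133 CPM. DMSO libraries held 188 CPM at 24 h and 181 CPM at 48 h. All 8 RA libraries lay under 3 of the 4 untreated libraries and under both DMSO libraries, and replicate 3 of 0 h lay below all of them. The change at 6 h was -0.57 ± 0.22 in log2 (adjusted p = 0.398, edgeR). With replicate number as a block, a fit that uses only replicates 1 and 2 and so leaves out that low library, Sfrp1 was called lower at each RA time: by -0.80 ± 0.13 at 6 h (adjusted p = 0.00205, edgeR), -0.50 ± 0.13 at 12 h, -0.45 ± 0.13 at 24 h and -0.59 ± 0.13 at 48 h. Without replicate 3 of 0 h and with no block, the call was made at 48 h only. The set term called it at no RA time (adjusted p = 0.14 at 6 h and 0.13 at 48 h, edgeR).

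Sfrp2, a close relative of Sfrp1, had levels of 40.2 to 51.5 CPM at 0 h. It was 43.3 and 32.6 CPM at 6 h, 35.4 and 39.9 CPM at 12 h, 41.2 and 55.7 CPM at 24 h, and 56.0 and 67.3 CPM at 48 h, with 42.6 and 53.2 CPM in DMSO. The 48 h libraries were the highest of all in CPM, though with TMM scaling replicate 1 (51.8) lay below 0 h replicate 3 (52.2) and DMSO at 48 h (54.9). The difference from 0 h was 0.23 ± 0.19 in log2 (adjusted p = 0.415, edgeR; 95% interval -0.20 to 0.65). Frzb was near the limit of detection, with 0 to 5 counts in every library except replicate 2 of 48 h, which had 19. Its change at 48 h was 1.97 ± 1.07 in log2 (adjusted p = 0.204, edgeR). With the set term it was 2.55 ± 0.77 (adjusted p = 0.0153, edgeR), on a total of 24 counts at 48 h and 10 at 0 h. Frzb passed the low-count filter only through replicate 2 of 48 h, so it could be called higher at 48 h but hardly lower. Little weight can rest on that call. The plot of antagonist levels shows the late rise of Sfrp5 and Dkk1 beside the narrower ranges of Sfrp1 and Sfrp2.

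**Figure D1:**
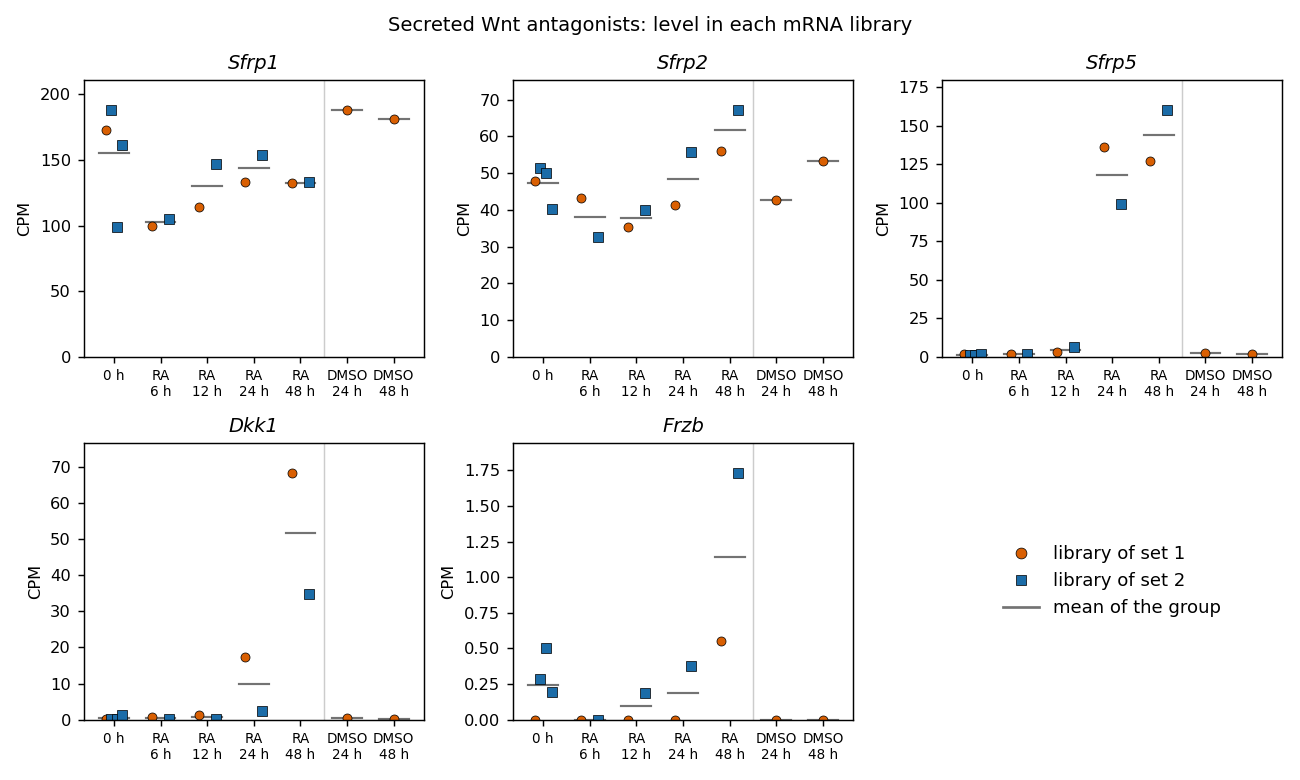
Level of the 5 secreted antagonists in CPM (vertical axes start at 0 and differ between panels) in each mRNA library by group; circles are libraries of set 1, squares those of set 2, and bars the group mean. Sfrp5 lay at or below 5.96 CPM until 12 h of RA and at or above 99.3 CPM from 24 h, and Dkk1 was highest at 48 h with 68.5 and 34.8 CPM.

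Among the TCF/LEF factors, Lef1, which mostly activates targets once bound by β-catenin, had the largest fall of the 10 genes. Its counts at 0 h were 38, 158, 238 and 99, or 5.37, 15.0, 24.1 and 9.61 CPM. After RA they were 0 and 7 at 6 h, 1 and 11 at 12 h, 0 and 8 at 24 h, and 1 and 42 at 48 h. DMSO libraries held 95 counts (12.5 CPM) at 24 h and 83 (10.4 CPM) at 48 h. Every RA library lay below every untreated and DMSO library, and replicate 2 of 48 h, at 3.84 CPM, came closest to them. At each RA time the set 1 library had 0 or 1 count.

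Lef1 was thus low at the first time sampled. Within set 2 it was 24.4 times lower at 6 h than at 0 h (11.8 to 61.1), and in set 1, at 0 counts against 38, it was at least 15.0-fold lower, with a floor of 3 counts per library. At 24 h these values were 21.6 times (10.9 to 50.3) and at least 16.4-fold. At 48 h the set 2 library was 4.20 times lower than 0 h (3.06 to 5.90), and the set 1 library, with 1 count, gave a ratio of 48.4 (8.18 to 1960). The fitted log2 change was -5.20 ± 1.5 at 6 h (adjusted p = 0.162, edgeR), -4.49 ± 1.41 at 12 h (adjusted p = 0.147), -5.20 ± 1.49 at 24 h (adjusted p = 0.0463) and -2.90 ± 1.23 at 48 h (adjusted p = 0.104). Only the 24 h value passed the test, and it was lost when replicate 2, 3 or 4 of 0 h or either 24 h library was left out, with an adjusted p of up to 0.218.

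The sets differed by 2.30 in log2 for Lef1 (adjusted p = 0.00262, edgeR), and the 3 libraries of 0 h in set 2 also ranged from 9.61 to 24.1 CPM among themselves. With the set term, Lef1 was called lower at all 4 times, at -5.00 ± 0.78 at 6 h (adjusted p = 0.00146), -4.25 ± 0.71 at 12 h (adjusted p = 0.00174), -4.98 ± 0.76 at 24 h (adjusted p = 0.000366) and -2.75 ± 0.58 at 48 h (adjusted p = 0.00164, edgeR throughout). With the replicate block the values were -5.23 at 6 h (adjusted p = 0.00156), -4.47 at 12 h (adjusted p = 0.00204), -5.20 at 24 h (adjusted p = 0.000456) and -2.96 at 48 h (adjusted p = 0.00215, edgeR throughout). Of 5 fibroblast markers, Thy1 was also lower after RA, at 11.3 to 27.4 CPM at 0 h, 3.96 to 6.80 CPM at 6 h and 1.11 to 1.37 CPM at 48 h. In the model without a set term its decrease was called from 12 h on and not at 6 h (log2 -1.74, adjusted p = 0.0944, edgeR). Lef1 was not called at 6 h in that model either (adjusted p = 0.162, edgeR). With the set term, 1 of the 2 fibroblast markers tested was called lower at 6 h. The Thy1 level was lowest at 48 h. Whether the lower levels of Thy1 and Lef1 are related was not tested. The other 4, Col1a1, Col1a2, Col3a1 and Postn, were at or under 0.607 CPM in every 0 h library, and Col1a2 and Postn had 0 counts there. At 48 h Col1a1 was called higher, at 2.37 to 3.10 CPM (log2 2.50, adjusted p = 0.03, edgeR), while Col1a2, Col3a1 and Postn were at or under 0.548 CPM.

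Tcf7, which with Lef1 makes the mostly activating pair of the family, had lower mean levels at the later RA times, by a smaller amount. It was 34.0, 38.1, 39.1 and 51.9 CPM at 0 h, 33.8 and 38.8 CPM at 6 h, and 25.2 and 34.6 CPM at 12 h. At 24 h it was 17.6 and 35.3 CPM and at 48 h 17.0 and 33.4 CPM, against 40.0 and 46.4 CPM in DMSO. In set 1 the libraries of 12, 24 and 48 h lay well below the rest, while those of set 2, at 33.4 to 35.3 CPM, lay just under the lowest set 2 library of 0 h, at 38.1 CPM. The change at 48 h was -0.85 ± 0.32 in log2 (adjusted p = 0.0728, edgeR). With the set term it was -0.77 ± 0.21 (adjusted p = 0.00706, edgeR) and with the replicate block -0.71 ± 0.23 (adjusted p = 0.0258, edgeR). The 24 h value of -0.75 ± 0.32 (adjusted p = 0.161, edgeR) was called with the set term (-0.67, adjusted p = 0.0255) but not with the block (adjusted p = 0.062).

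Tcf7l1, known as a repressor of pluripotency genes in embryonic stem cells, had its highest levels at 6 h. It stood at 75.4, 72.0, 69.0 and 51.1 CPM at 0 h and at 102 and 86.8 CPM at 6 h. At 12 h it was 80.8 and 76.4 CPM, at 24 h 90.1 and 76.7 CPM, at 48 h 72.6 and 53.2 CPM, and in DMSO 66.1 and 67.5 CPM. Every library of 6, 12 and 24 h lay above every 0 h and DMSO library in CPM, but by small distances, and with TMM scaling replicate 2 of 12 h (75.5) and of 24 h (70.2) lay below replicate 1 of 0 h (80.2). The 6 h difference was 0.53 ± 0.21 in log2 (adjusted p = 0.401, edgeR; 95% interval 0.06 to 0.99). At 48 h it was -0.24 ± 0.21 (adjusted p = 0.435, edgeR), which the replicate block turned into a called decrease of -0.39 ± 0.13 (adjusted p = 0.0282). The step from 24 to 48 h, -0.45 ± 0.25 (adjusted p = 0.469, edgeR), was likewise called with the block (-0.44, adjusted p = 0.0361). The set term called neither, with -0.33 at 48 h (adjusted p = 0.0804) and -0.46 from 24 to 48 h (adjusted p = 0.0949, edgeR).

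Tcf7l2 was the one TCF/LEF gene called higher after RA. Its level was 8.33, 9.96, 6.68 and 6.99 CPM at 0 h, 8.95 and 8.29 CPM at 6 h, 12.2 and 11.2 CPM at 12 h, 10.6 and 15.1 CPM at 24 h, and 28.3 and 34.8 CPM at 48 h. DMSO libraries had 4.07 CPM at 24 h and 7.53 CPM at 48 h. The libraries of 12 and 24 h already lay above all untreated and DMSO libraries, and those of 48 h stood apart from everything else. At 48 h the change from 0 h was 1.83 ± 0.23 in log2 (adjusted p = 0.000337, edgeR), a call that held in all 14 alternatives tried, and it measured 3.39 times in set 1 (2.55 to 4.58) and 4.40 times in set 2 (3.74 to 5.19). The step from 24 to 48 h was 1.26 ± 0.28 (adjusted p = 0.0772, edgeR), and it passed the test with the set term (adjusted p = 0.00634) and with the block (adjusted p = 0.00203). The genes Skp1, Gm31734 and 4 predicted genes overlap Tcf7, Tcf7l2 and Tcf7l1 in RefSeq. Whether reads were counted by strand is not given in the sources used here, so reads of such partners cannot be told apart from those of the 3 genes.

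Axin2 did not change detectably. Its levels were 42.5, 22.2, 33.7 and 29.3 CPM at 0 h, 38.5 and 23.4 CPM at 6 h, 41.1 and 19.7 CPM at 12 h, 45.7 and 30.2 CPM at 24 h, and 33.9 and 26.5 CPM at 48 h, with 43.5 and 36.4 CPM in DMSO. The RA libraries overlapped those of 0 h at every time, and the higher library of each pair was always that of set 1. At 48 h the difference from 0 h was -0.24 ± 0.39 in log2 (adjusted p = 0.689, edgeR), and the 95% interval from -1.10 to 0.62 leaves room for a change of 1 log2 unit downward. The set difference was -0.72 ± 0.13 (adjusted p = 0.000749, edgeR), a larger value than any of the differences between groups in the fit without a set term over all 14 libraries. The plot of the nuclear factors shows Lef1 lower in every RA library, near 0 in those of set 1, and the Tcf7l2 rise at 48 h.

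**Figure D2:**
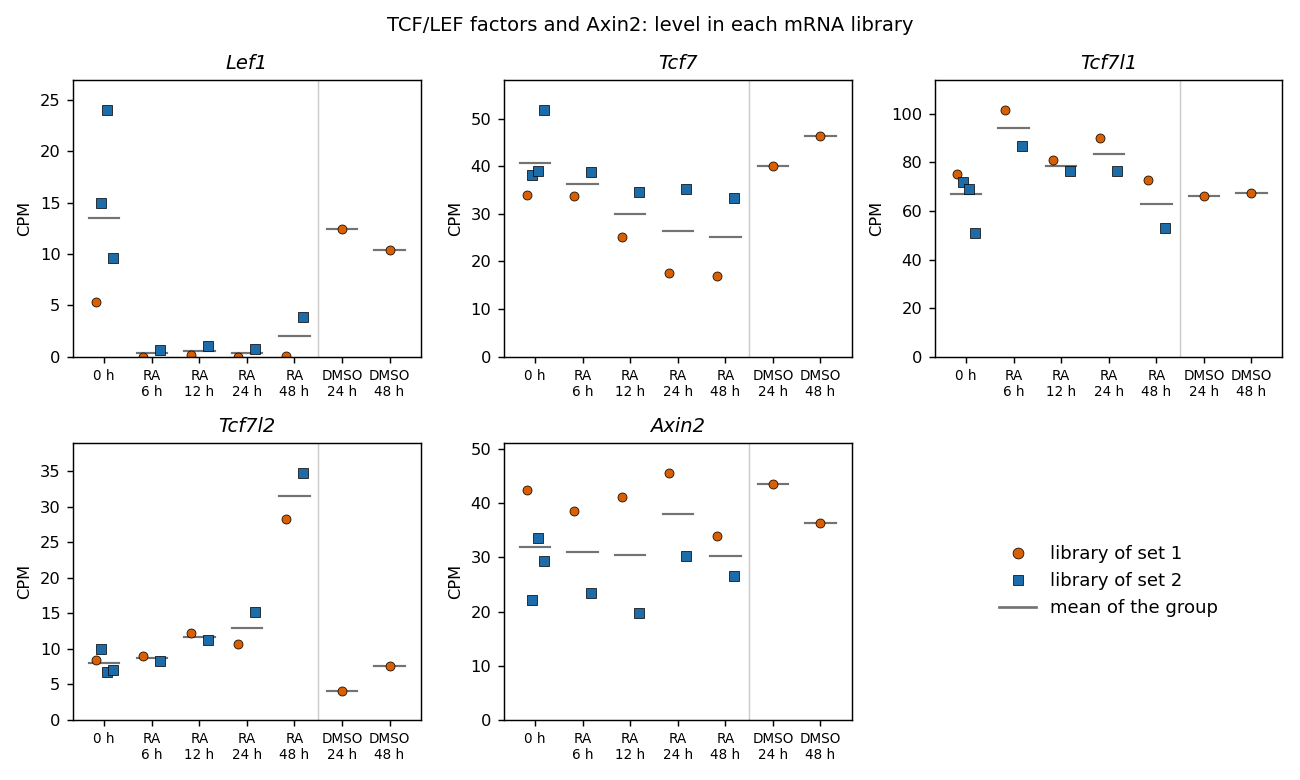
Level of the 4 TCF/LEF genes and Axin2 in CPM (vertical axes start at 0 and differ between panels) in each mRNA library by group; circles are libraries of set 1, squares those of set 2, and bars the group mean. Every RA library had less Lef1 than any untreated or DMSO library, Tcf7l2 was highest at 48 h of RA with 28.3 and 34.8 CPM, and Axin2 was higher in the set 1 library of each RA time.

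Counted together, 0 of the 10 genes were called at 6 h, when 1.66% of all 16155 genes tested were called. At an unadjusted p under 0.05 there were 3 (Sfrp1, Lef1 and Tcf7l1), against 1570 of all 16155 genes tested. DESeq2 called 1, Lef1, and 535 of all genes. At 12 h 1 was called, Sfrp5, against 2.75% of all genes. At 24 h Sfrp5 and Dkk1 were called higher and Lef1 lower, against 12.3% of all genes, and at 48 h Sfrp5, Dkk1 and Tcf7l2 were called higher, against 29.5% called either way and 17.5% called higher. The 48 h count of 3 of 10 is therefore close to the share among all genes. With the set term the counts were 1, 2, 4 and 6 of 10 at the 4 times in order, against 5.61%, 12.7%, 29% and 48.8% of all genes. The 6 at 48 h include Frzb, which passed the low-count filter only through a library of that time. With the replicate block, which left Frzb under the filter for low counts, they were 2, 3, 4 and 7 of 9, against 5.21%, 9.67%, 28.3% and 46.2%.

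**Figure D3:**
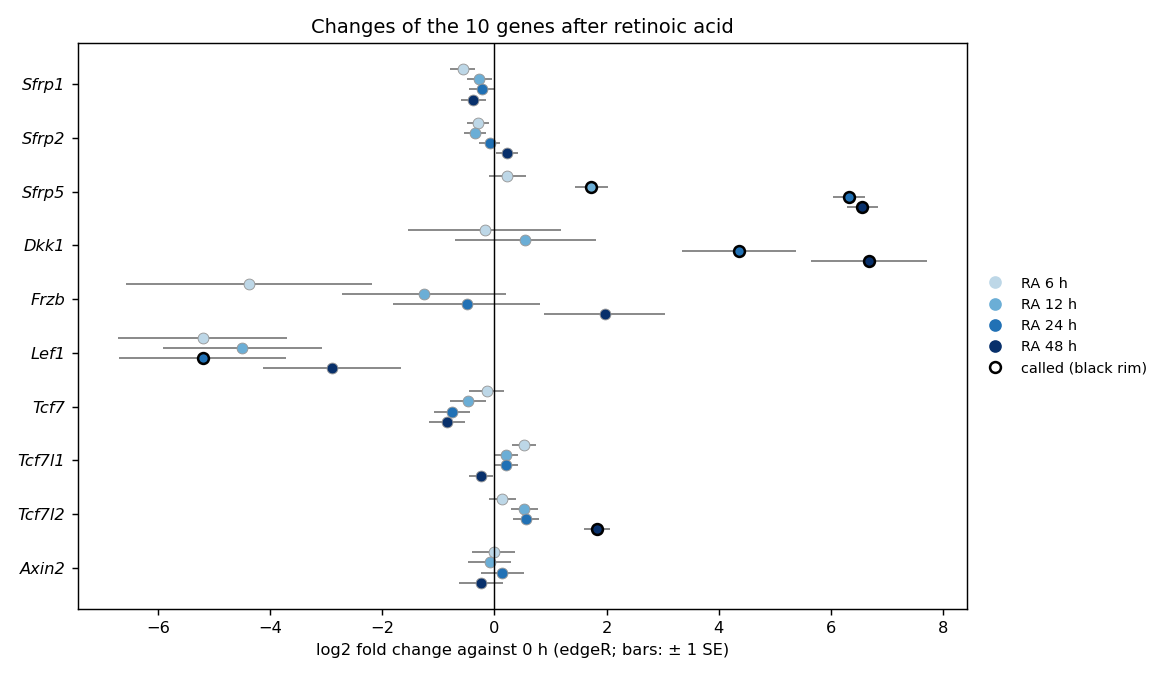
Fitted log2 fold change of each of the 10 genes at 6, 12, 24 and 48 h of RA against 0 h (horizontal axis), with bars of 1 SE from edgeR's quasi-likelihood fit without a set term; darker points are later times and a black rim marks an adjusted p under 0.05. Sfrp5 and Dkk1 lie near 6.6 at 48 h, Lef1 lies at -5.20 at 6 and 24 h with wide bars, and Sfrp1, Sfrp2, Tcf7, Tcf7l1 and Axin2 stay within 1 log2 unit of 0.

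Against DMSO of the same time, which asks about RA rather than time in culture, Sfrp5 was called at 24 h, with 5.47 ± 0.50 in log2 (adjusted p = 0.00104, edgeR), when 1.89% of all genes were called. At 48 h, when 7.96% of all genes were called, the genes called were Sfrp5 (6.40 ± 0.52, adjusted p = 0.000682), Tcf7l2 (1.90 ± 0.37, adjusted p = 0.0148) and Dkk1 (adjusted p = 0.0467, edgeR throughout). For Dkk1 the DMSO library had 1 count, so the size is given as a ratio of counts, 399 (71.4 to 15800). Each DMSO group is a single library that was assumed to vary like the other groups. The Dkk1 call was lost without either 48 h library (adjusted p up to 0.116) and the Tcf7l2 call without replicate 2 of 48 h (adjusted p = 0.0544). Lef1 was lower than DMSO by -5.14 ± 1.65 at 24 h (adjusted p = 0.16, edgeR) and -2.54 ± 1.47 at 48 h (adjusted p = 0.314, edgeR), both short of the test. Both DMSO libraries belong to set 1, and with the set term these values were -6.79 (adjusted p = 0.000565) and -4.27 (adjusted p = 0.00197, edgeR). That fit also called Dkk1, Tcf7l2 and a lower Tcf7 at 24 h and a lower Tcf7 at 48 h, so that 5 of the 10 were called at each time, against 10.4% and 24.1% of all genes.

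The mean of the DMSO libraries was set against 0 h to see what culture in solvent did. None of the 10 genes was called, 0 had an unadjusted p under 0.05, DESeq2 called 0, and edgeR called 0 of all genes tested, of which 1274 had an unadjusted p under 0.05 and 6 were called by DESeq2. The fitted differences ran from -0.71 for Dkk1 to 0.51 for Sfrp5, leaving aside Frzb, which had 0 counts in both DMSO libraries. Both DMSO libraries are of set 1, and in the fit with the set term Dkk1 stood at -1.98 ± 1.35 and Lef1 turned from -0.21 to 1.67 ± 0.59 (adjusted p = 0.593, edgeR), Tcf7l1 and Axin2 turned to -0.20 and -0.17, and again none was called. The comparisons of RA with 0 h share their 0 h libraries with this one. Between 6 and 12 h none of the 10 was called, 1 (Sfrp5) had an unadjusted p under 0.05, DESeq2 called 0, and 0 of all genes passed in edgeR, with 287 at an unadjusted p under 0.05 and 7 called by DESeq2. Between 24 and 48 h none was called, and 1 (Tcf7l2) had an unadjusted p under 0.05 and was the gene DESeq2 called. Of all genes tested, 0.706% passed in edgeR, 2233 had an unadjusted p under 0.05 and DESeq2 called 669.

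The rest of the Wnt pathway was described from 7 lists, for which counts at 48 h against 0 h are given beside the median change of all genes, 0.01 in log2, and the 17.5% of all genes called higher and 12% called lower. The 18 receptors and co-receptors had 5 members called higher and 0 lower, with a median change of 0.28. Frizzled receptors led them: Fzd4 rose by 3.35 ± 0.36 in log2 (adjusted p = 0.000143, edgeR), from a mean of 1.93 to 22.1 CPM, and Fzd2, Fzd8 and Fzd1 rose by 1.96, 3.18 and 2.63. Of 25 genes for ligands and their secretion, 18 could be tested, of which 6 were called higher and 1 lower, with a median of 0.72. In this and the other lists, a gene near 0 counts at 0 h passed the low-count filter only if another group had more. Such a gene could be called higher but hardly lower, which weighs on the counts and medians. Wls, which carries Wnt proteins to the cell surface, rose by 4.49 ± 0.52 (adjusted p = 0.00021, edgeR), from 6.24 to 156 CPM. The ligand genes Wnt9a and Wnt5b rose by 3.20 and 2.31, and Wnt2, which DESeq2 did not call, had 1 count in all at 0 h and 18 at 48 h. Wnt10a fell, by 1.91 in log2 (adjusted p = 0.0316, edgeR), a call lost without any of 5 single libraries.

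Most of the other antagonists that could be tested moved the way of Sfrp5 and Dkk1. Of 19 listed, 13 could be tested, of which 8 were called higher and 1 lower at 48 h, with a median change of 1.32 in log2. Some of them, such as Dkk3 with 13 counts in all at 0 h, could hardly have been called lower. Dkk3, a divergent relative of Dkk1, rose by 5.51 ± 0.67 (adjusted p = 0.000286, edgeR), from 0.312 to 17.1 CPM. Igfbp4, which binds insulin-like growth factors and also Frizzled receptors, rose by 3.34 and Apcdd1, a membrane inhibitor, by 1.2. Sost, a secreted protein that binds LRP co-receptors, had 3 counts in all at 0 h and 69 at 48 h, a ratio of 43.5 (14.3 to 216). Sfrp4 was the member called lower, from 3.00 to 0.662 CPM (adjusted p = 0.0155, edgeR), and that call was lost without either 48 h library. At 24 h 1 of the 13 was called higher and 0 lower, against 12.3% of all genes called either way.

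Cytoplasmic transducers, 20 in all, had 6 called higher and 1 lower, with a median of 0.47. Dact1, which binds Dishevelled, rose by 1.89 ± 0.29 in log2 (adjusted p = 0.00106, edgeR). Amer1, Tnks and Nkd1, regulators of the destruction complex or of Dishevelled, rose by 1.32, 1.47 and 2.21, of which the calls of Amer1 and Tnks were lost without replicate 2 of 48 h and that of Nkd1 without either 48 h library. Axin1, the paralog of Axin2, was called lower by -0.47 ± 0.15 (adjusted p = 0.0374, edgeR), which was lost when any 1 of the 6 libraries compared was left out. Among 20 nuclear partners, 5 were called higher and 4 lower, with a median of 0.12. The co-repressor genes were split: Tle2 rose by 3.50 ± 0.35 (adjusted p = 0.000103, edgeR), from 0.504 to 6.43 CPM, whereas Tle4 fell by 1.77 and Ctbp2 by 1.84, from 300 and 239 to 97.6 and 74.0 CPM. Hipk2 was also called higher, and Cby1 and Hdac2 lower, each lost without at least 1 of the 48 h libraries.

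Genes often used as Wnt targets gave no single direction. Of 13 tested, 4 were called higher and 2 lower, with a median of 0.56. Tnfrsf19 rose by 1.58 ± 0.18 in log2 (adjusted p = 0.000175, edgeR) and Sp8 by 1.48, the latter not called without replicate 1 of 48 h. Myc fell by 2.68 ± 0.51 (adjusted p = 0.0035, edgeR), from 211 to 36.7 CPM, and Ccnd1 by 1.38, not called without replicate 2 of 48 h. Nkd1 stands in this list too. Of 5 genes that Tcf7l1 is known to hold down in embryonic stem cells, 4 were called lower and 0 higher, with a median of -1.29: Nr5a2 fell by 2.35, Klf2 by 1.69, Nanog by 1.29 and Esrrb by 0.69. The Nanog and Esrrb calls were lost without replicate 2 of 48 h. Tcf7l1 itself was not called in the same comparison, at -0.24, and Nanog is also among the pluripotency markers whose sum fell.

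**Figure D4:**
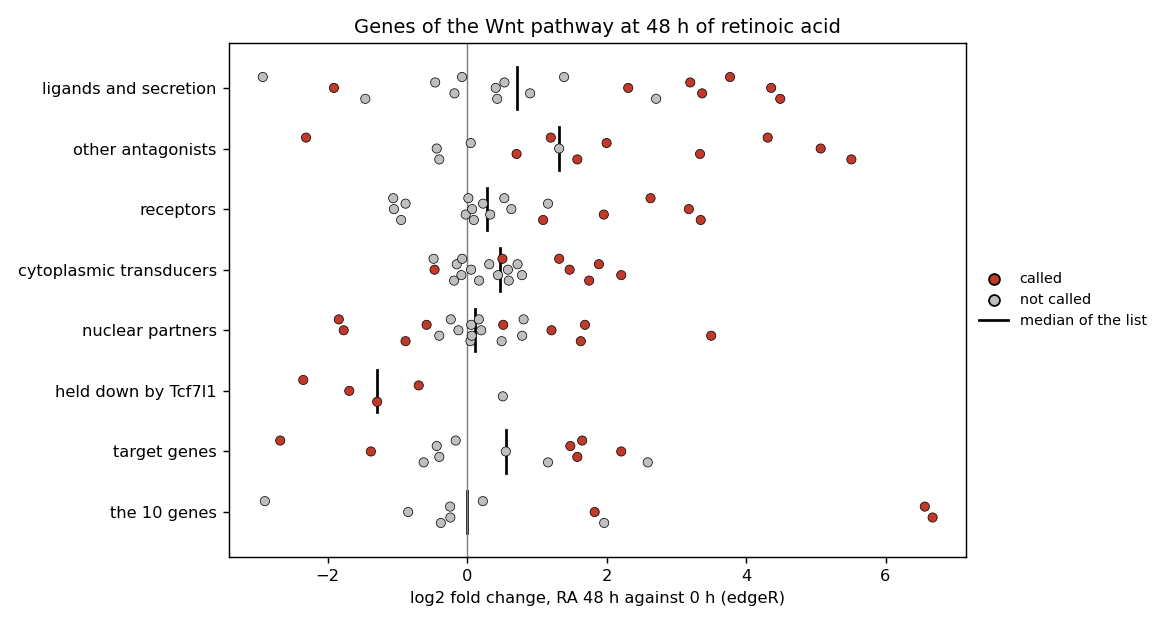
Fitted log2 fold change at 48 h of RA against 0 h (horizontal axis) of each tested gene of the 7 lists and of the 10 genes, 1 point per gene; red points passed an adjusted p under 0.05 in edgeR and black bars mark list medians. The other antagonists have 8 red points to the right of 0 and 1 to the left, and the genes held down by Tcf7l1 have 4 to the left.

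For 5 of the genes, the 3 genes with the most similar course were found by Pearson's r of log2 CPM over the 14 libraries, among the 11084 genes whose mean reached 5 CPM. These are descriptions, since the points share libraries, groups and sets. Lef1 was closest to Dnmt3b (r = 0.93), a DNA methyltransferase, Otx2 (r = 0.928), a transcription factor of the epiblast and anterior brain, and Mb21d2 (r = 0.921). Dkk1 was closest to Gata4 (r = 0.97), an endoderm transcription factor and one of the primitive endoderm markers, Sqstm1 (r = 0.969) and A530084C06Rik (r = 0.967). The order depends on the measure. By Spearman's rho Otx2 was the nearest to Lef1 and Dnmt3b ranked 24, and by Pearson's r of the 7 group means they ranked 27 and 57. For Dkk1, Sqstm1 ranked 9 by Spearman's rho, A530084C06Rik 58.5 and Gata4 64.5, and by the group means A530084C06Rik ranked 8, Gata4 32 and Sqstm1 42. Tcf7l1 was closest to Ckb (r = 0.912), Wdtc1 (r = 0.907) and Ehbp1l1 (r = 0.899). The genes closest to Axin2 were 1700022I11Rik (r = 0.943), Epop (r = 0.942) and Romo1 (r = 0.938), over libraries in which Axin2 differed by set more than by time. Sfrp1 had no neighbour as close, with Gabbr1 at r = 0.841, Msrb2 at 0.796 and Slc6a6 at 0.783.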

How the data were processed

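Gene expression was measured by mRNA sequencing in 14 libraries of F9 cells. Reads were handled with TopHat2 2.0.7, HTSeq and DESeq on build mm9, per the submitters' processing notes, which name no options. The authors deposited 1 table of unnormalized read counts for each library, by Ensembl gene. The 5 summary entries for reads given to no gene held 72.52 to 76.78% of all counts in a table and were left out. Gene symbols in RefSeq were matched by name.

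A single quasi-likelihood model of all 14 libraries was fitted to the counts in edgeR 4.0.16 (R 4.3.3), with robust estimation, TMM factors (0.9291 to 1.095) and a term for each group. The default low-count filter kept 16155 genes. Two-sided p-values were adjusted over these by Benjamini-Hochberg, and called means under 0.05 after adjustment. The SE was obtained from the log2 change and the F statistic, as their ratio after taking the root of F, and intervals are at 95%. Ratios of counts have exact binomial intervals, and a library at 0 counts was set to a floor of 3. The members and gene lists were chosen with earlier results of these data known. All 10 members are named. From each list the text names up to 4 genes with the smallest adjusted p at 48 h and those called against most of their list. It also names the 3 nearest genes of 5 members. The fit was tried before use on simulated counts with the same spread for every gene and no set difference. These libraries differ in both, so that trial cannot show how well the fit performs on them.

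Chi-squared per degree of freedom between replicates was 10.07 to 61.95, so the spread exceeded counting error. Deviations of number 1 from number 2 libraries correlated between groups (r 0.66 to 0.792, median 0.687, over 10 pairs of groups), which pairing or a set difference could each give. In all 5 groups the number 1 library belongs to set 1 and the number 2 library to set 2, so pairing and set cannot be told apart. The replicate block and the set term are therefore not separate checks of each other. Alternatives were RLE normalization, DESeq2 1.42.0, other filters, the replicate block, a set term, set 2 alone and each library left out. The chromatin immunoprecipitation samples and their regions were not used here. Plots were drawn with matplotlib 3.10.9.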

Additional observations from a re-analysis of the deposited data

How the results depend on the processing

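Across the alternatives no called change of the 10 genes reversed. RLE normalization kept all 100 member results on their side of the threshold, and the filter of at least 1 CPM in 4 libraries kept all 90 it could test. Without a filter for low counts 3 calls were lost (Dkk1 and Lef1 at 24 h, Dkk1 against DMSO at 48 h), which left Sfrp5 as the member called at 24 h. The replicate block changed 13 of 63 results, each to a call, and gave 2 members called at 6 h, 3 at 12 h, 7 at 48 h, 2 from 12 to 24 h and 3 from 24 to 48 h, and it ended no call. No paired analysis was possible for DMSO, because that group has no second replicate. The set term gave 1 at 6 h, 2 at 12 h, 6 at 48 h, 2 from 12 to 24 h, 2 from 24 to 48 h, and 5 against DMSO at each time. The set term without replicate 1 of 24 h gave 1, 2 and 6 at 6, 12 and 48 h, as the full set term did. It leaves 1 library at 24 h, so no count is given for comparisons with that time. Set 2 alone has 1 library per RA time, so no count is given for it. DESeq2 gave 1, 2 and 5 at 6, 12 and 48 h, when it called 535, 959 and 5239 of all genes. It gave 1 from 24 to 48 h and 3 against DMSO at 24 h, when it called 669 and 854 of all genes. Leaving out a library of an RA time leaves that time with 1 library, so no count of members is given for those fits. The calls lost in them are named with each gene above. Counting by TMM-scaled CPM moved Sfrp1 to 107 CPM at 6 h, 122 CPM at 48 h and 199 CPM in DMSO at 24 h. For genes near 0 counts, depth limits what can be seen: 3 counts in a library equal 0.274 to 0.424 CPM, the order of most Frzb and early Dkk1 values. The cause of the changes with the block and the set term was not tested. Among all genes tested, 268 were called at 6 h, against 535 by DESeq2, 798 with the block, 906 with the set term and 107 to 293 with a library left out. At 48 h 4766 were called, against 7881 with the set term and 2731 to 4692 with a library left out.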
